A study of Mus musculus with 6 samples.

Results

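The genes described here move chloride across the neuronal membrane or set how fast it moves. There were 9 of them, chosen by name with earlier results of these data known, among the 49568 gene names listed for each sample. They were the chloride importer gene Slc12a2 (NKCC1), the potassium-chloride cotransporter genes Slc12a4 (KCC1), Slc12a5 (KCC2) and Slc12a7 (KCC4), the kinase genes Wnk1, Wnk2, Wnk3 and Stk39 (SPAK), and the chloride channel gene Clcn2 (ClC-2).

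NKCC1 carries sodium, potassium and chloride into the cell, and KCC2, which is largely restricted to neurons, carries potassium and chloride out. The balance of the transporters sets the chloride gradient, and with it whether GABA and glycine depolarise or hyperpolarise a neuron. In many immature neurons NKCC1 activity is high relative to KCC2 activity and the ratio shifts toward KCC2 as the brain matures. WNK kinases activate the kinases SPAK and OSR1, which phosphorylate both kinds of transporter, so that NKCC1 is switched on while the KCCs are held back.

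Messenger RNA was sequenced from the preBötzinger complex (preBötC), the brainstem site that generates breathing rhythm, of mouse pups at postnatal day 2. The 6 samples held 15 neurons each, drawn by micropipette, and each sample came from a different mouse. All mice were Dbx1CreERT2; Rosa26tdTomato offspring of dams given tamoxifen, so both groups carried the same alleles and the same drug exposure. The 3 Dbx1 samples held neurons with tdTomato, derived from progenitors that expressed the homeobox gene Dbx1, and the 3 non-Dbx1 samples held neuronal somata of the same region without tdTomato. Labelling depends on tamoxifen-induced recombination, so a Dbx1-derived neuron that escaped it and a non-Dbx1 neuron cannot be told apart by fluorescence.

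Between 6464675 and 9432958 reads per sample fell on genes. The 7 neuronal markers (Tubb3, Snap25, Syn1, Eno2, Rbfox3, Map2 and Stmn2) were above 0 in every sample and their RPKM summed to 1375 to 2211 in the Dbx1 samples and 1331 to 1835 in the non-Dbx1 samples. RPKM, the unit of every level below, is the reads of a gene scaled to its exon length in kilobases and to the reads on genes of its sample. Slc17a6, the vesicular glutamate transporter gene of glutamatergic neurons, was at 47.2 to 128 RPKM in the Dbx1 samples and 13.6 to 35.1 RPKM in the non-Dbx1 samples. Of the 17614 genes tested below, 5.35% were likewise higher in every Dbx1 sample. The 4 glycinergic and GABAergic markers (Slc6a5, Slc32a1, Gad1 and Gad2) summed to 45.7 to 143 RPKM in the Dbx1 samples and 97.7 to 143 RPKM in the non-Dbx1 samples, so these sums overlapped. Non-Dbx1 replicate 1 stood apart. It had the fewest reads, its 8 oligodendrocyte lineage markers summed to 434 RPKM against 19.9 to 73.6 RPKM in the other 5 samples, its haemoglobin genes summed to 13946 RPKM against 89.6 to 1198 RPKM, and Ttr, a choroid plexus gene, was at 58.6 RPKM against at most 1.63 RPKM. The choroid plexus marker Folr1 was at 0 in every sample. The 8 astrocyte markers summed to 470 to 666 RPKM in the Dbx1 samples and 462 to 1091 RPKM in the non-Dbx1 samples. Most of each sum came from Aldoc and Fabp7. The sum was lowest in non-Dbx1 replicate 1, but the markers were split there. Fabp7 (205 RPKM) and Aqp4 (0.0304 RPKM) had their lowest level in that library, and Gja1 (17.8 RPKM) and Aldh1l1 (14.4 RPKM) their highest. The 6 microglial markers summed to at most 13.3 RPKM in any sample, with Tmem119 at 0 throughout. Because each sample pooled 15 cells, fewer cells with a transcript and less of the transcript per cell cannot be told apart.

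Transcripts of Slc12a5 exceeded those of Slc12a2 in all 6 samples, in both groups. Slc12a2 was measured at 2.99, 2.44 and 7.54 RPKM in Dbx1 replicates 1, 2 and 3 and at 16.3, 3.58 and 7.15 RPKM in non-Dbx1 replicates 1, 2 and 3. Slc12a5 was measured at 11.8, 23.7 and 23.9 RPKM in the Dbx1 samples and at 34.4, 13.3 and 16.2 RPKM in the non-Dbx1 samples. The ranges of the groups overlapped for each gene, and non-Dbx1 replicate 1 held the highest level of both. Slc12a5 stood at 3.93, 9.68 and 3.17 times Slc12a2 in the Dbx1 samples and at 2.10, 3.71 and 2.27 times Slc12a2 in the non-Dbx1 samples. Dbx1 replicate 2, with the lowest Slc12a2 level of all, had the widest gap.

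The balance was expressed as log2 of (Slc12a2 RPKM + 1) over (Slc12a5 RPKM + 1), so that a value below 0 means more Slc12a5. It averaged -1.64 ± 0.654 (SD, n = 6) and was below 0 in 6 of 6 samples (exact two-sided sign-change test, p = 0.03125, the smallest p that 6 samples can give). Without non-Dbx1 replicate 1 the mean was -1.76 and all 5 remaining samples were still below 0, with an exact p of 0.0625, the smallest that 5 samples allow. Replacing Slc12a5 by the sum of Slc12a4, Slc12a5 and Slc12a7, the KCC genes among the 9, gave a mean of -1.70.

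The size of this gap, though not its direction, depended on the exon length behind the RPKM values. The length the authors used could be recovered from the steps between values, and for Slc12a2 it was 6520 bases, equal to the only protein-coding transcript of that gene in the GENCODE vM21 annotation. For Slc12a5 it was 15439 bases, which was 2.56 times the longest protein-coding transcript (6028 bases) and also above all of its annotated exons merged (7447 bases). Across the 17066 tested genes with both lengths known, the deposited length exceeded the merged exon length for 62.1% and equalled it for 25.3%. With the longest coding transcript as the length of each gene, Slc12a5 stood at 10.1, 24.8 and 8.13 times Slc12a2 in the Dbx1 samples and at 5.38, 9.51 and 5.81 times in the non-Dbx1 samples. The mean balance was then -2.95, and it was -3.23 with merged exon lengths, again below 0 in 6 of 6 samples on each scale. Comparisons between the groups within a gene do not involve this length beyond the pseudocount of 1 RPKM.

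**Figure D1:**
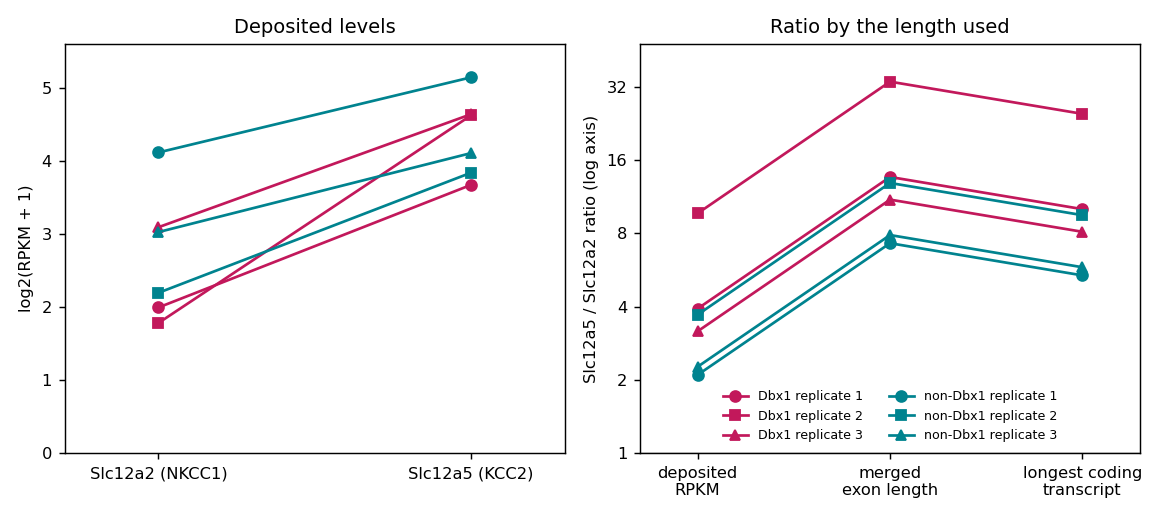
Left, log2(RPKM + 1) of Slc12a2 and Slc12a5, with a line joining the values of each of the 6 samples (Dbx1 in magenta, non-Dbx1 in teal). Right, the ratio of Slc12a5 to Slc12a2 on a log axis under 3 choices of gene length: it runs from 2.10 to 9.68 with the deposited RPKM and from 5.38 to 24.8 with the longest coding transcript, above 1 in every sample.

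Whether the balance differed between Dbx1 and non-Dbx1 neurons was tested over samples. The log2 balance was -1.68, -2.84 and -1.55 in the Dbx1 samples, a mean of -2.02 ± 0.713 (SD, n = 3). The non-Dbx1 samples were at -1.03, -1.64 and -1.08, averaging -1.25 ± 0.341 (SD, n = 3). Dbx1 replicate 3 lay above non-Dbx1 replicate 2, so the groups overlapped with the deposited RPKM. The mean was lower by 0.77 in the Dbx1 samples, which is toward Slc12a5 and larger than the SD of either group, but the exact two-sided permutation test gave p = 0.20, where 3 samples against 3 cannot go below 0.10. Without Dbx1 replicate 2 the difference was -0.36, and without non-Dbx1 replicate 1 it was -0.66 (exact p = 0.40 for each). A difference in balance was not detectable with this number of samples.

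Slc12a2, which lies on chromosome 18 of mm10 (57878678 to 57946821, + strand), had the largest L2FC in size among the 9 genes over all 6 samples, a place it lost to others when single samples were left out (to Wnk1, at 0.78, without non-Dbx1 replicate 1). L2FC, the measure of difference used throughout, is the mean of log2(RPKM + 1) in the Dbx1 samples minus that in the non-Dbx1 samples. Slc12a2 averaged 4.32 ± 2.80 RPKM (SD, n = 3) in the Dbx1 samples and 9.03 ± 6.58 RPKM (SD, n = 3) in the non-Dbx1 samples. Its L2FC was -0.82 (SE 0.615, 95% interval -2.23 to 0.58, limma FDR = 0.942). Between 120 and 689 reads per sample lay behind these values. The L2FC was -0.32 without non-Dbx1 replicate 1, the library with high oligodendrocyte, haemoglobin and Ttr transcripts, whose part in the Slc12a2 level was not tested.

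Slc12a5 lies on chromosome 2 (164960802 to 164999731, + strand) and was the highest of the 9 genes, above 90.9% of the genes with any RPKM above 0. It averaged 19.8 ± 6.95 RPKM (SD, n = 3) in the Dbx1 samples and 21.3 ± 11.4 RPKM (SD, n = 3) in the non-Dbx1 samples. Each value rested on 1443 to 3429 reads. The L2FC was -0.05 (SE 0.428, 95% interval -1.03 to 0.93, limma FDR = 0.993), so differences of about the size of the Slc12a2 one lay inside its interval. Its sign turned without Dbx1 replicate 1, the lowest sample (L2FC 0.27), and without non-Dbx1 replicate 1, the highest (L2FC 0.34).

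The other KCC genes among the 9 were low and patchy. Slc12a4, whose product is the widely expressed KCC1, was at 0, 0.874 and 0.0747 RPKM in the Dbx1 samples and at 0.0268, 0.769 and 0.569 RPKM in the non-Dbx1 samples. These values came from 0 to 38 reads, and 361 of the exon bases of Slc12a4 are shared with the gene Gm16156. Slc12a7, which encodes KCC4, was at 0.221, 0 and 0.0280 RPKM in the Dbx1 samples and at 0, 1.82 and 0 RPKM in the non-Dbx1 samples. One library, non-Dbx1 replicate 2, thus held 80 of the recovered Slc12a7 reads, the other libraries held 0 to 9, and 3 reads, which a count of 0 allows, correspond to at most 0.0904 RPKM in any library. That library also held 69.4 RPKM summed over 5 endothelial and pericyte markers (63.7 RPKM of it Cldn5), against 0.0627 to 3.11 RPKM in the other libraries. Kdr (3.98 RPKM) and Flt1 (1.60 RPKM) were also highest in that library. Pecam1 (0.0343 RPKM) and Pdgfrb (0.0756 RPKM) were not, with 0.507 RPKM of Pecam1 in Dbx1 replicate 2 and 0.960 RPKM of Pdgfrb in non-Dbx1 replicate 3. Whether that library held such cells, and their part in the Slc12a7 level, was not tested. The L2FC was -0.17 for Slc12a4 and -0.39 for Slc12a7 (limma FDR = 0.974 and 0.952). At such low levels the size of an L2FC follows the pseudocount: with 0.1 in place of 1 these were -0.71 and -0.74.

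Of the summed RPKM of Slc12a4, Slc12a5 and Slc12a7, the Slc12a5 transcripts made up 96.4% to 99.6% in the Dbx1 samples and 83.7% to 99.9% in the non-Dbx1 samples. The lowest share was that of non-Dbx1 replicate 2, the library with the Slc12a7 reads. These shares were computed after the levels had been seen.

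Among the WNK kinases, which act upstream of the transporters, Wnk2 had the highest level in every sample. Wnk2 was measured at 15.0, 12.1 and 19.2 RPKM in the Dbx1 samples and at 16.8, 16.5 and 9.74 RPKM in the non-Dbx1 samples. Its highest sample was 1.97 times its lowest, the narrowest spread among the 7 genes above 0 in every sample, and its L2FC was 0.11 (95% interval -0.65 to 0.88, limma FDR = 0.984). Wnk2 made up 70.4% to 88.1% of the summed RPKM of Wnk1, Wnk2, Wnk3 and Wnk4, and 56.5% to 80.6% with the longest coding transcript as the length.

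Wnk1, the broadly expressed family member, was at 1.11, 2.98 and 2.28 RPKM in the Dbx1 samples and at 2.24, 0.912 and 0.615 RPKM in the non-Dbx1 samples. Its deposited length, 45343 bases, was 4.002 times its longest coding transcript, so its low RPKM understates it against Slc12a2, whose lengths were equal. The L2FC of Wnk1 was 0.49 (95% interval -0.79 to 1.76, limma FDR = 0.960), one of the 2 positive values among the 9, with Wnk2. It ran from 0.28 without non-Dbx1 replicate 3 to 0.78 without non-Dbx1 replicate 1. Wnk3, a neuronally enriched kinase gene on the X chromosome, was at 0.914, 1.54 and 1.92 RPKM in the Dbx1 samples and at 2.25, 1.75 and 1.16 RPKM in the non-Dbx1 samples. Its L2FC was -0.15 (limma FDR = 0.986). Wnk3 shares 523 exon bases with A230072E10Rik.

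Stk39 encodes SPAK, the kinase that WNKs activate and that phosphorylates NKCC1 and the KCCs directly. It was measured at 11.6, 4.21 and 7.60 RPKM in the Dbx1 samples and at 9.31, 6.59 and 14.0 RPKM in the non-Dbx1 samples, and the lowest and the highest sample were in different groups. The L2FC was -0.35 (95% interval -1.40 to 0.70, limma FDR = 0.960), and it ran from -0.65 without Dbx1 replicate 1 to -0.016 without Dbx1 replicate 2, the lowest sample. Oxsr1, which encodes the related kinase OSR1, was at 3.86, 2.11 and 9.16 RPKM in the Dbx1 samples and at 5.13, 11.2 and 3.19 RPKM in the non-Dbx1 samples. Stk39 was the higher of the pair in 4 of 6 samples, all but Dbx1 replicate 3 and non-Dbx1 replicate 2, and in 5 of 6 samples with the longest coding transcript as the length.

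Clcn2 encodes ClC-2, an inwardly rectifying chloride channel. It was at 1.002, 5.48 and 4.87 RPKM in the Dbx1 samples and at 5.97, 4.91 and 3.44 RPKM in the non-Dbx1 samples. Dbx1 replicate 1 was the low sample, and the other 5 lay within 3.44 to 5.97 RPKM. The L2FC of -0.42 (95% interval -1.80 to 0.96, limma FDR = 0.962) became 0.12 without that sample. Clcn2 shares 167 exon bases with Fam131a and Polr2h, and its deposited length was 4.33 times its longest coding transcript.

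**Figure D2:**
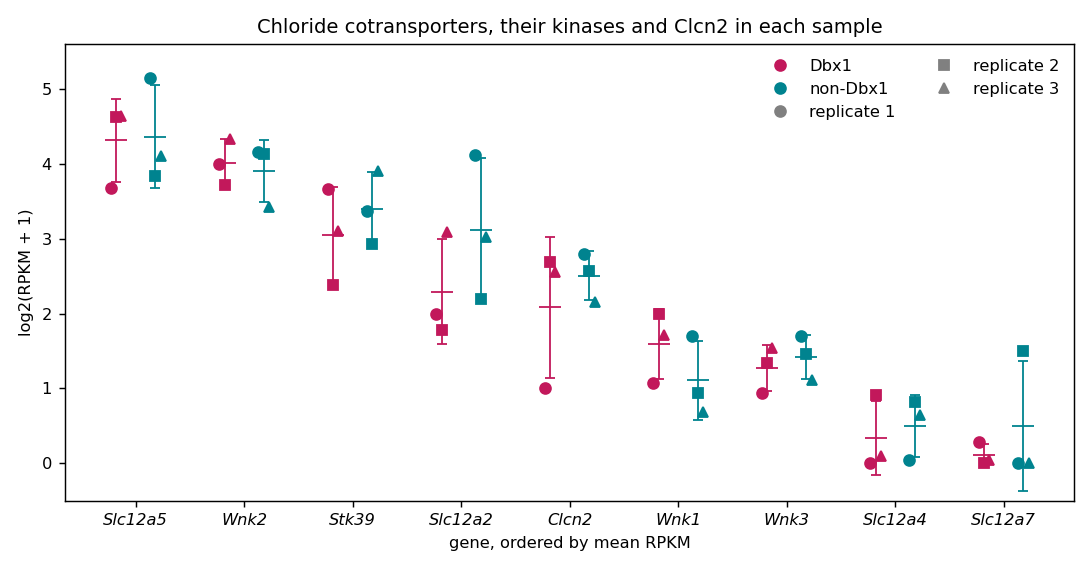
log2(RPKM + 1) of the 9 genes in each of the 6 samples, ordered by mean RPKM from 20.5 for Slc12a5 to 0.345 for Slc12a7, with group means and SD as horizontal marks and bars. Dbx1 and non-Dbx1 samples overlap for every gene, and the lowest points of Clcn2 and Slc12a5 are both Dbx1 replicate 1.

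Ordered by mean deposited RPKM over the 6 samples, the genes were Slc12a5 (20.5), Wnk2 (14.9), Stk39 (8.88), Slc12a2 (6.68), Clcn2 (4.28), Wnk1 (1.69), Wnk3 (1.59), Slc12a4 (0.386) and Slc12a7 (0.345). In this order Wnk3 and Slc12a4 were the only neighbours whose ranges over samples did not overlap, and this held for all 3 choices of length. With the longest coding transcript as the length, Slc12a5 (52.6), Wnk2 (26.9) and Stk39 (23.0) kept the top places, and Clcn2 rose to 18.5. Slc12a2 stayed at 6.68 on that scale and fell to the sixth place, behind Wnk1 at 6.76, which was within the spread of either gene. Slc12a5 was above Wnk2 in 4 of 6 samples as deposited and in 6 of 6 on that scale.

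No difference between Dbx1 and non-Dbx1 neurons was detected in the transcripts of the 9 chloride genes. All 9 genes were tested, none had a limma FDR under 0.1 and none had an unadjusted p under 0.05, where 0.00568% and 5.20% of the 17614 tested genes did. The FDR of the 9 ran from 0.942 to 0.993. None had groups that did not overlap, against 10.6% of all tested genes. With voom and limma on the recovered reads, and without non-Dbx1 replicate 1, the counts among the members tested (8 and 9) were again 0 at an FDR of 0.1 and 0 at an unadjusted p of 0.05. Wnk1 and Wnk2 had an L2FC above 0 and the other 7 genes one below 0, the median being -0.17, and the median size of the L2FC was 0.349 against 0.327 over all tested genes. The intervals in the plot of differences are wide: for Slc12a2 and Clcn2 they reach past a change of 1.5 on the log2 scale in favour of the non-Dbx1 samples, and for Wnk1 in favour of the Dbx1 samples.

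**Figure D3:**
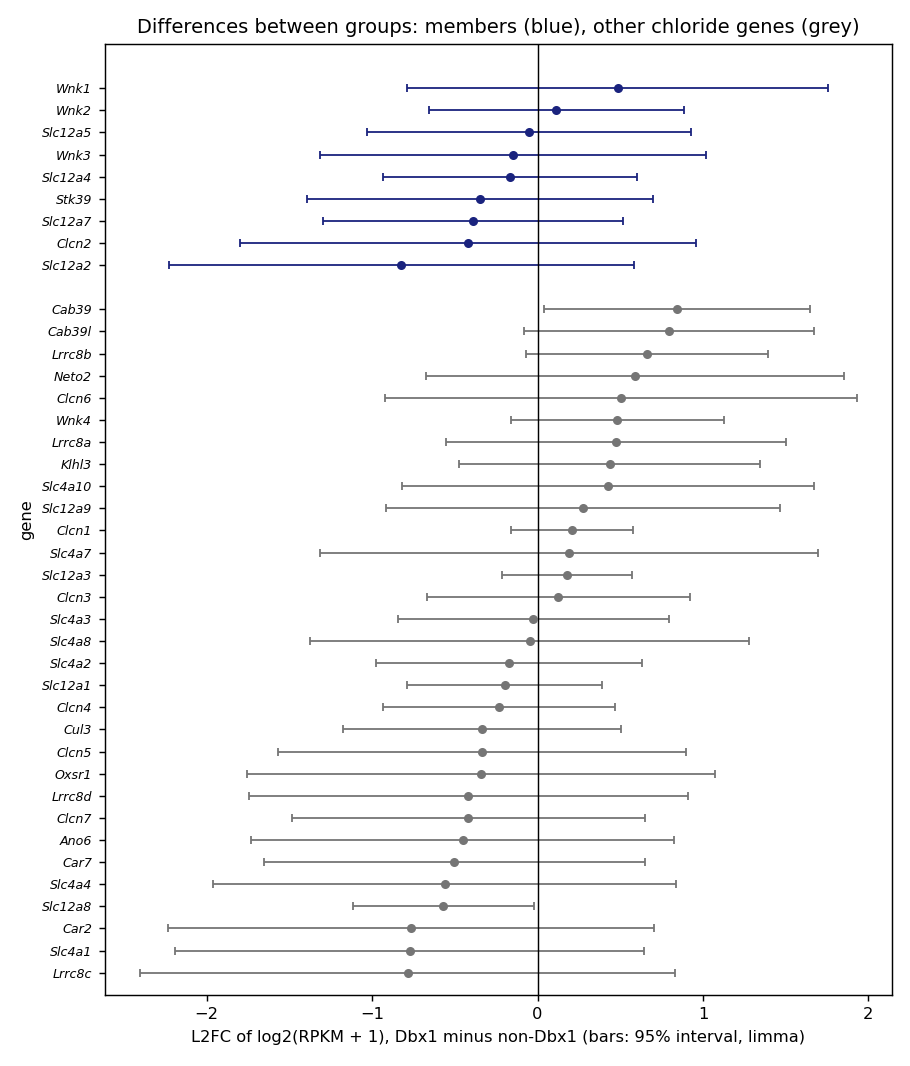
L2FC of log2(RPKM + 1), Dbx1 minus non-Dbx1, with limma's 95% interval, for the 9 genes (blue) and the 31 tested genes of the wider chloride list (grey). The interval spans 0 for each of the 9 genes. Among the grey genes only those of Cab39 (above 0) and Slc12a8 (below 0) do not span 0.

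A wider list of 35 genes around chloride handling was read from the same test, of which 31 could be tested. None had a limma FDR under 0.1, and 2 had an unadjusted p under 0.05, Cab39 and Slc12a8. Groups did not overlap for 4 of them. Cab39, Clcn1 and Lrrc8b were higher in every Dbx1 sample, where 5.35% of all tested genes were. Slc12a8 was higher in every non-Dbx1 sample, where 5.24% were. Clcn1 met the filter of 3 samples above 0 through the Dbx1 samples alone. Its lack of overlap was thus fixed by the filter and is no support for a difference. For Slc12a8 the non-Dbx1 samples alone were enough to meet the filter, and the Dbx1 samples held 0, 2 and 0 reads. The lack of overlap of Slc12a8 is therefore not taken as support either. Of the 31, 14 had an L2FC above 0 and 17 one below 0, the median being -0.05. Without non-Dbx1 replicate 1, none of the 30 genes tested had an FDR under 0.1 or an unadjusted p under 0.05.

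Cab39 encodes MO25 alpha, a scaffold protein that binds and strongly activates SPAK and OSR1. It was measured at 37.8, 22.1 and 17.9 RPKM in the Dbx1 samples and at 10.2, 16.3 and 14.1 RPKM in the non-Dbx1 samples, so that the lowest Dbx1 sample lay just above the highest non-Dbx1 sample. The L2FC was 0.84 (SE 0.351, limma FDR = 0.912), and 0.67 without non-Dbx1 replicate 1. It fell to 0.55 without Dbx1 replicate 1, the highest sample. Its paralogue Cab39l was at 23.3, 22.3 and 13.2 RPKM in the Dbx1 samples and at 13.2, 6.50 and 13.5 RPKM in the non-Dbx1 samples. Its L2FC was 0.80 (limma FDR = 0.912), and 0.48 without non-Dbx1 replicate 2, its lowest sample. The groups overlapped for Cab39l, which shares 261 exon bases with Cdadc1.

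Of the other genes of the kinase pathway, Cul3, a ubiquitin ligase scaffold that takes part in WNK degradation, was at 9.47 to 23.3 RPKM in the Dbx1 samples and at 15.9 to 23.0 RPKM in the non-Dbx1 samples. Klhl3, the adaptor that brings WNKs to that ligase, was above 0 in 2 Dbx1 samples and in 1 non-Dbx1 sample, at most at 1.89 RPKM. Wnk4 was also above 0 in 2 Dbx1 samples and in 1 non-Dbx1 sample, at most at 1.01 RPKM. Low levels of Klhl3 and Wnk4 thus lay beside a well detected Cul3.

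Among other SLC12 genes, the renal transporter genes Slc12a1 (NKCC2) and Slc12a3 (NCC) reached at most 0.801 and 0.342 RPKM in any sample. Slc12a9, an orphan member of the family, was at 4.51, 7.08 and 12.4 RPKM in the Dbx1 samples and at 5.95, 10.3 and 3.29 RPKM in the non-Dbx1 samples. Slc12a8, a distant member, was at 0, 0.0367 and 0 RPKM in the Dbx1 samples and at 0.770, 0.113 and 0.718 RPKM in the non-Dbx1 samples. Its groups did not overlap, with 0, 2 and 0 reads in the Dbx1 samples and 36, 7 and 49 reads in the non-Dbx1 samples. Its L2FC was -0.57 (limma FDR = 0.912), and -2.26 with a pseudocount of 0.1. Slc12a1, Slc12a3 and Slc12a8 were thus under 1 RPKM in every sample.

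Bicarbonate shares the anion channels with chloride, and anion exchangers load or extrude chloride against it. Slc4a3, the exchanger gene AE3, was at 8.93 to 18.9 RPKM in the Dbx1 samples and at 11.0 to 13.6 RPKM in the non-Dbx1 samples, with an L2FC of -0.02. Car2, which encodes a carbonic anhydrase, was at 11.2, 9.68 and 26.0 RPKM in the Dbx1 samples and at 36.2, 8.22 and 49.4 RPKM in the non-Dbx1 samples. Its L2FC was -0.76 (limma FDR = 0.949). The groups overlapped for each. Slc4a1, the red cell exchanger gene, was at 4.75 RPKM in non-Dbx1 replicate 1, the library with the highest haemoglobin transcripts, and at most at 0.199 RPKM elsewhere.

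Among the chloride channels, Lrrc8b, a subunit of the volume-regulated anion channel, was at 12.6, 14.0 and 15.7 RPKM in the Dbx1 samples and at 8.97, 6.69 and 10.3 RPKM in the non-Dbx1 samples. The samples of the groups did not overlap and the spread within each group was small, with an L2FC of 0.66 (SE 0.320, limma FDR = 0.912). The L2FC was 0.69 without non-Dbx1 replicate 1. With single samples left out it ran from 0.51 without non-Dbx1 replicate 2, the lowest sample, to 0.78 without non-Dbx1 replicate 3. Lrrc8a, the obligatory subunit of the same channel, was at 0.417 to 1.64 RPKM and 0.101 to 1.24 RPKM in the groups, and Lrrc8e was at 0 in every sample. Of the 4308 merged exon bases of Lrrc8a, 2944 are shared with 1700084E18Rik and Gm28035. The part of this overlap in the low Lrrc8a level was not tested. Clcn1, the skeletal muscle chloride channel gene, was at 0.0121, 0.153 and 0.317 RPKM in the Dbx1 samples and at 0 in the non-Dbx1 samples. Dbx1 replicate 1 held 1 of its reads, and no sample held more than 23.

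Clcn4 and Clcn7, which encode chloride-proton exchangers of endosomes and lysosomes, averaged 14.4 ± 3.69 and 7.94 ± 4.51 RPKM (SD, n = 3) in the Dbx1 samples and 17.0 ± 3.05 and 10.6 ± 4.47 RPKM (SD, n = 3) in the non-Dbx1 samples. Ano6, a lipid scramblase and ion channel gene, averaged 6.62 ± 2.53 RPKM (SD, n = 3) and 10.5 ± 6.82 RPKM (SD, n = 3). The groups overlapped for these 3 genes. Neto2, whose product binds KCC2, was at 4.64, 10.7 and 7.45 RPKM in the Dbx1 samples and at 6.66, 6.68 and 1.78 RPKM in the non-Dbx1 samples. Its L2FC was 0.59 (limma FDR = 0.951).

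**Figure D4:**
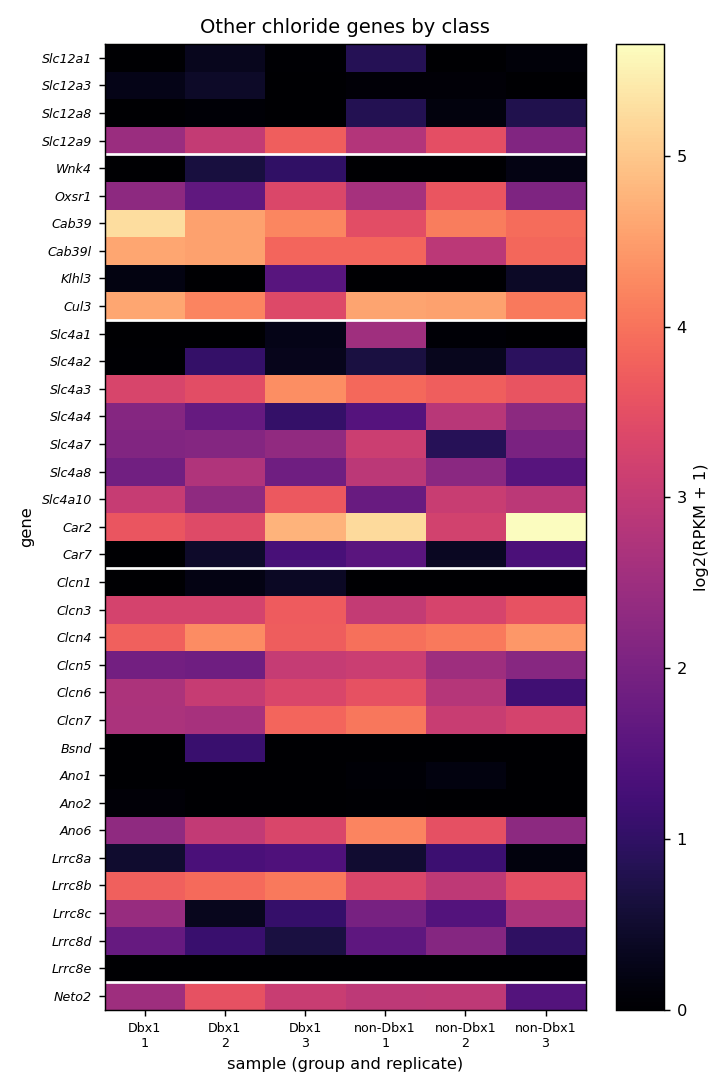
log2(RPKM + 1) of the 35 genes of the wider chloride list in each sample, with white lines between SLC12 genes, the kinase pathway, bicarbonate-coupled transport, chloride channels and the KCC2 partner Neto2. The renal genes Slc12a1 and Slc12a3 and the genes Ano1 and Ano2 stay dark or near black, and Slc4a1 is bright in non-Dbx1 replicate 1 alone.

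Whether Slc12a2 and Slc12a5 varied together was tested over samples. Over the 6 samples Pearson's r of their log2(RPKM + 1) was 0.668 (exact permutation p = 0.158) and Spearman's rho was 0.657 (exact permutation p = 0.175), and r was 0.881 without the 2 samples farthest from the median of Slc12a2. This was the only relation tested. As a description over the same samples, r of Slc12a5 was 0.776 with Wnk3, 0.767 with Wnk1 and 0.725 with Clcn2, and from -0.556 to 0.224 with the other members apart from Slc12a2. For Slc12a2, r was highest with Slc12a5 and ran from -0.513 to 0.592 with the other members. The genes whose pattern was most like Slc12a2, among 4378 genes with a mean of at least 10 RPKM that were above 0 in all 6 samples, were Qk (r = 0.971), S100a16 (r = 0.966) and Pim3 (r = 0.966). For Slc12a5, among 4377 genes, they were Rpp21 (r = 0.984), Dnajc4 (r = 0.984) and Kif2a (r = 0.979). These likenesses are descriptions over 6 samples that share their libraries and depths. Each of the 6 genes was highest in non-Dbx1 replicate 1, as Slc12a2 and Slc12a5 were.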

How the data were processed

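Each sample held 15 neurons of 1 mouse, so replicates were separate animals. The authors aligned the reads to mm10 with TopHat2, sorted them with SAMtools, counted them on genes with HTSeq without regard to strand, and deposited RPKM, computed with exon lengths of an Ensembl annotation whose release is not given in the sources used here. Values were not scaled between samples.

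Reads on genes were recovered from the steps between RPKM values, as the smallest whole numbers that fit within 0.01 reads, so the true number may be a multiple of them. They came out whole for 17613 of the 17614 tested genes (99.99%). A recovered length is a fraction of the true one in the same measure. Floors of 3 reads cover counting error only. Positions and lengths came from GENCODE vM21 by gene name, which matched 95.3% of the names. Reads from genes that overlap on either strand cannot be told apart.

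The authors tested counts and named several genes with an FDR under 0.1, among them Gata2, Htr1a, Hif1a and Syt10. The test used here called 1 of 17614 genes, so a lack of calls among the 9 does not show equal levels. Here log2(RPKM + 1), which understates changes of low genes, was tested with limma 3.58.1 (eBayes with a trend) in R 4.3.3 over the genes that 3 or more samples held above 0. The test was two-sided, with p-values adjusted over all these genes (Benjamini-Hochberg, FDR threshold 0.1). The script was tested on simulated data. Ratios were tested by exact permutation in Python 3.11.15. The members and lists were chosen with earlier results of these data known. Named are all 9 genes, and of the wider list those whose groups did not overlap, those averaging at least 10 RPKM in either group, and the SLC12 and kinase genes. Slc4a1, Lrrc8a, Lrrc8e, Neto2 and the genes called near black in a caption were named after their values were seen. Alternatives were another pseudocount, other filters, size factors, quantile normalization, no trend, a replicate block, each sample left out, and, added after seeing the data, voom on recovered reads (genes with at least 10 in at least 3 samples), other gene lengths and list counts without non-Dbx1 replicate 1. Sequences were not used here, and some genes of the wider list, with 1 alternative that needs them, are not reported here.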

Additional observations from a re-analysis of the deposited data

How the results depend on the processing

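No L2FC of the 9 genes passed an FDR of 0.1 under any alternative in which the gene was tested. Signs turned only on leaving out a sample. The L2FC then ran from -0.45 to 0.0013 for Slc12a4, from -0.31 to 0.34 for Slc12a5, from -0.12 to 0.27 for Wnk2, from -0.30 to 0.022 for Wnk3 and from -0.73 to 0.12 for Clcn2. The turns came without Dbx1 replicate 1 for Slc12a4, Slc12a5 (0.27), Wnk3 and Clcn2, on omitting non-Dbx1 replicate 1 for Slc12a5 (0.34), and for Wnk2 on omitting replicate 3 of the Dbx1 samples (-0.04) or of the non-Dbx1 samples (-0.12). The L2FC of Slc12a2 stayed below 0, from -1.28 without non-Dbx1 replicate 2 to -0.32 without non-Dbx1 replicate 1. Left-out samples moved Stk39 from -0.65 to -0.016 and Wnk1 from 0.28 to 0.78. Slc12a7 was at -0.64 without non-Dbx1 replicate 1 or 3 and at -0.34 without Dbx1 replicate 2. With any other sample left out, Slc12a7 was above 0 in too few samples to be tested. This includes non-Dbx1 replicate 2, which held 80 of its reads, so the sign of its L2FC without that library is not known. With voom, Slc12a4 was at -1.65 and Wnk1 at 0.94, both larger in size than Slc12a2 (-0.92). Clcn2 (-0.73) exceeded Slc12a2 (-0.57) on omitting Dbx1 replicate 2, as did Wnk1 (0.74 against -0.67) on omitting Dbx1 replicate 1. The mean balance of Slc12a2 to Slc12a5 was -2.02 in the Dbx1 samples alone and -1.25 in the non-Dbx1 samples alone (exact p = 0.25, the smallest that 3 samples give) and -1.76 to -1.39 with 1 sample left out. The difference in balance between groups kept its sign under all 12 alternatives run, from -1.01 to -0.36, with exact p from 0.10 with merged exon lengths to 0.40. With merged exon lengths the groups did not overlap, but only narrowly. Dbx1 replicate 1 was at -3.18725 and non-Dbx1 replicate 2 at -3.18720.

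Over all tested genes, 1 passed an FDR of 0.1, lower in the Dbx1 samples. The number was 0 with a pseudocount of 0.1, 0 with every gene above 0 in at least 1 sample, 0 with voom, 3 without the trend, and 0 to 1 with 1 sample left out (0 without non-Dbx1 replicate 3, and 1 in the other direction without non-Dbx1 replicate 2). The cause was not tested. Same-numbered samples did not deviate together (correlations -0.129, 0.0238 and -0.0630, and 1 of 6 samples was closest to its own number). No pairing by number was thus seen, though 3 pairs of deviations from group means cannot exclude one. A replicate block gave 0 calls, and a balance difference of -0.77 (exact sign-change p = 0.25, the smallest that 3 pairs give). Depth limits Slc12a4 and Slc12a7, with at most 38 and 80 reads in a sample.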
